A study of Homo sapiens with 3 samples.

Results

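The genes described here are 10 that mark epithelial and mesenchymal cell states: the cadherins CDH1, CDH2, CDH3, CDH11 and CDH13, the protocadherin PCDH7, the epithelial adhesion molecule EPCAM, the filament gene VIM, and the transcription factors ZEB1 and SNAI2. They were chosen by name from 52992 annotated genes, and their 106 annotated transcripts were summed per gene. RNA was measured in TE5, an established human line derived from esophageal squamous carcinoma (ESCC), transfected with a scramble control (1 library) or with short hairpin RNA against KLF5 (2 libraries), all harvested after 48 h in serum-containing medium. No other allele or agent was named for any library. KLF5, the gene targeted, encodes a Krüppel-like zinc finger protein active in dividing epithelial cells. The shKLF5 libraries carry the numbers 1 and 2, and whether these are separate hairpins or separate cultures is not given in the sources used here. P-values therefore measure no more than how far apart these 2 libraries are, a spread that may be technical, with scramble (1 library) taken to vary as they do.

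Classical cadherins are calcium-dependent adhesion proteins that join cells through their outer domains and bind catenins, and through them actin, inside the cell. E-cadherin, the product of CDH1, is the main one of epithelia. In an epithelial to mesenchymal transition, factors of the SNAI, ZEB and TWIST families repress CDH1, and N-cadherin (CDH2), cadherin 11 (CDH11) and vimentin (VIM) are typically gained. The microRNAs of the miR-200 family and miR-205 are known to hold ZEB factors down in epithelia. SNAI2, unlike most of these factors, is also a normal factor of basal squamous cells.

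Totals ran from 32720563 to 33544752 estimated counts per library, and values below are given as counts, as CPM (counts relative to library size after TMM scaling, a correction for differences in RNA composition) or as TPM (an abundance corrected for transcript length but not TMM-scaled). KLF5 itself had 8402 counts in scramble against 1333 and 1531, so the knockdown showed in both shKLF5 libraries. The squamous label held in scramble, where 10 of 10 squamous markers were detected with a summed level of 3673 TPM. The sums in shKLF5 libraries 1 and 2 were 1181 and 626 TPM. In CPM each of the 10 was lower by value in both libraries. For SOX2 in library 1 the difference was small, with 221.9 CPM in scramble against 219.8. In TPM, without TMM scaling, SOX2 was higher in library 1, with 113 against 81.5 in scramble. The keratins KRT5, KRT6A and KRT14 were among the 10 markers. KRT5 was at 2110, 514 and 188 TPM, KRT6A at 1011, 248 and 208 TPM and KRT14 at 17.6, 1.27 and 0.378 TPM. Scramble had 16920 genes with at least 10 counts, and shKLF5 libraries 1 and 2 had 19304 and 19422, so weakly expressed genes tended to be higher there. Among tested genes with a mean under 5 CPM, 54.5% were higher in both shKLF5 libraries, 20.2% lower in both and 25.3% opposite. Above that level 50.8% were lower in both and 23.5% higher. In bulk RNA, fewer cells of a type and less RNA per cell cannot be told apart.

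The sequences that bear on the members are of 2 kinds. The first are the microRNAs hosted by genes measured here, with the seed (bases 2 to 8) in capitals, taken from RefSeq on GRCh38.p14.
hsa-miR-200c-3p: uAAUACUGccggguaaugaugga
hsa-miR-141-3p: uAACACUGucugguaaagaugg
hsa-miR-205-5p: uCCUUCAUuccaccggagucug
The seed of miR-200c is shared with miR-200b and miR-429, and that of miR-141 with miR-200a. MIR200C and MIR141 lie inside MIR200CHG on chromosome 12, and MIR205 inside MIR205HG on chromosome 1. ZEB1-201 had the most counts of the ZEB1 transcripts in each library, though in shKLF5 library 2 ZEB1-208 was above it in TPM (0.805 against 0.773). In the 1938 bases of the 3′ UTR of ZEB1-201, the letters CAGTATT that pair with the miR-200c seed occurred 5 times. Of 6045 genes with a 3′ UTR at least as long, cut to the same length and with ZEB1 among them, 20.7% held them at least once and 0.0331% as often. The letters CAGTGTT for miR-141 occurred 3 times (24.2% and 0.414%), and ATGAAGG for miR-205 once (15.0%). An example of each in ZEB1-201 is given with the matching letters in capitals, for miR-200c at UTR position 369, for miR-141 at 782 and for miR-205 at 818.
ZEB1 with miR-200c: ttttatcttatCAGTATTatca
ZEB1 with miR-141: atcatcagaatCAGTGTTtgtg
ZEB1 with miR-205: tgtggtaacatATGAAGGatat

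The second kind are promoters, windows of 300 bases around the RefSeq start and mostly upstream of it. The promoter set used held no window for CDH1, CDH3, CDH11, CDH13 or EPCAM, so these could not be examined. Windows were examined for CDH2, PCDH7, VIM and ZEB1 among the 10 genes, matched by symbol, while SNAI2 was left out of this step. That of VIM (GRCh38.p14, chr10:17227991-17228290, plus strand) is shown because VIM was the member higher by the most in both shKLF5 libraries. That of CDH2 (chr18:28177081-28177380, minus strand) is shown because CDH2 went opposite ways in them. It is the upstream of 2 CDH2 entries, and the other had 0 matches of either motif below. Capitals mark GGGNGNGG, a GC box of the kind bound by KLF factors, on either strand.
VIM promoter: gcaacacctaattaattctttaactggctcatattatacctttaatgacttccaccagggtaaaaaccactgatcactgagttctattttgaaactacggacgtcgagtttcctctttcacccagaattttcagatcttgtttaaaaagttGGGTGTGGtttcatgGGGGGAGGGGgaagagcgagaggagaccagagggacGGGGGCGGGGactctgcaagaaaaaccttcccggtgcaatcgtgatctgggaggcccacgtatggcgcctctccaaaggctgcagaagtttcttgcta
CDH2 promoter: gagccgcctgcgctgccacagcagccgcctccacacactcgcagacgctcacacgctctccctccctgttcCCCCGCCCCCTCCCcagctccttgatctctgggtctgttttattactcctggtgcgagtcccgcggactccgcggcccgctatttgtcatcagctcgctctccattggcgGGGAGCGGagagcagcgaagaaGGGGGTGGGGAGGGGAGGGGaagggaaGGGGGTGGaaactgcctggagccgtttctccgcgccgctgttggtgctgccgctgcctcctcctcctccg
GGGNGNGG matched 5 times in the VIM window and 9 times in the CDH2 window, overlapping matches counted separately. At least 1 match was present in 56.2% of 35116 promoters of the same length and at least 5 in 9.79%. The E-box CAGGTG, known to be bound by SNAI and ZEB factors, matched in neither window shown, and it occurred in 20.6% of all promoters. Among the windows not shown, it matched 3 times in a ZEB1 window (chr10:31318966-31319265) and 1 time in another (chr10:31318167-31318466). The remaining ZEB1 windows and that of PCDH7 had 0 matches of it. GGGNGNGG matched 2 times in the PCDH7 window and from 0 to 8 times in the ZEB1 windows.

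CDH1 was the most abundant classical cadherin of the line, and both shKLF5 libraries had less of it. CDH1 (ENSG00000039068; GRCh38 chromosome 16, 68737225 to 68835548) was covered by 9283 counts in scramble, 5367 with shKLF5 library 1 and 3577 with library 2. On the CPM scale this was 349 against 126 ± 33.2 (SD, n = 2), with both shKLF5 libraries below scramble. The level was 2.33-fold lower in library 1 (95% interval 2.25 to 2.41 for counting error only) and 3.39-fold lower in library 2 (3.27 to 3.53). Across both, the log2 fold change was -1.47 (SE 0.37, 95% interval -2.32 to -0.62). The edgeR quasi-likelihood p was 0.0041 before and 0.457 after Benjamini-Hochberg adjustment (adjusted p), so the difference did not pass over all genes. The full-length transcript CDH1-201 carried 87.1%, 81.6% and 88.1% of the gene's counts in scramble and libraries 1 and 2, so the same transcript carried most of the reads in each library.

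EPCAM, a homophilic adhesion protein of epithelia and carcinomas, stood lower by value together with CDH1. EPCAM (ENSG00000119888; chromosome 2, 47345158 to 47387601) held 7100 counts in scramble against 4766 (library 1) and 3674 (library 2). Its normalised level was 267 CPM in scramble and 119 ± 19.3 CPM (SD, n = 2) in the shKLF5 libraries. Scramble again lay above both shKLF5 libraries, and the log2 fold change was -1.16 (SE 0.35), with an adjusted p of 0.474 by edgeR's quasi-likelihood test. EPCAM-201 held 5816, 4051 and 3156 of these counts. A short retained-intron model, EPCAM-206, held 1150, 581 and 466, which raises the gene's TPM: it was 189, 124 and 92.4 TPM in all, and 122, 90.1 and 65.1 TPM over protein-coding transcripts.

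**Figure D1:**
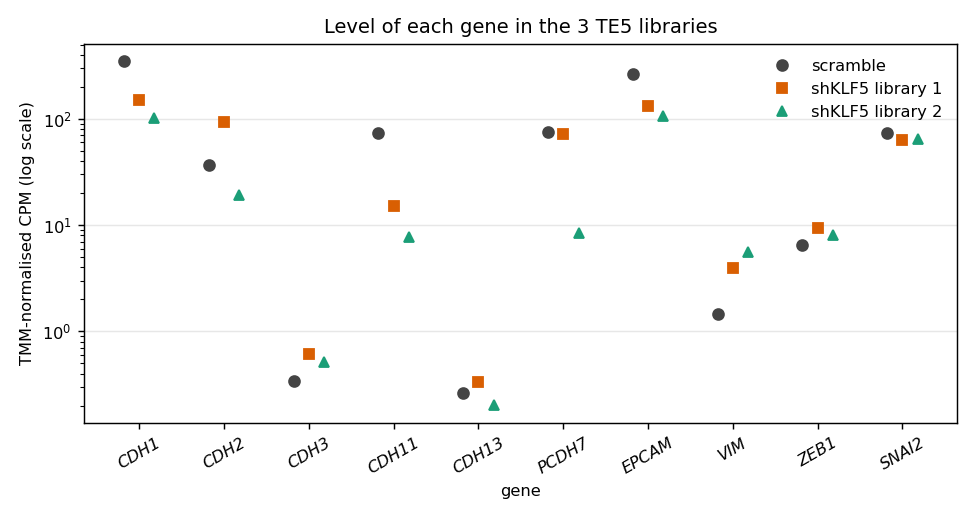
Level of each of the 10 genes in the 3 libraries, in TMM-normalised CPM on a log axis, with 1 point per library. CDH1, EPCAM and CDH11 have scramble on top, VIM has scramble at the bottom (1.47 CPM against 3.93 and 5.58), and CDH2 has scramble between the shKLF5 libraries.

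Of the mesenchymal cadherins, CDH11 was expressed in control TE5 cells and was the member furthest below scramble. CDH11 (ENSG00000140937; chromosome 16, 64943753 to 65126112), a type II cadherin of mesenchymal cells and osteoblasts, reached 1961 counts in scramble but 543 in library 1 and 267 in library 2. In CPM this was 73.8 against 11.4 ± 5.29 (SD, n = 2), 4.87-fold lower in library 1 (counting interval 4.42 to 5.36) and 9.61-fold lower in library 2 (8.45 to 10.96). The log2 fold change was -2.69 (SE 0.46, 95% interval -3.75 to -1.63). The edgeR quasi-likelihood p was 0.00040 before adjustment, and the adjusted p was 0.317. DESeq2 gave an adjusted p of 0.00107 and called 0.32% of its genes lower, and among the alternatives run it was the one under which a member passed. Over the alternatives the adjusted p of CDH11, by edgeR, DESeq2 or limma, ran from 0.00107 to 0.685. The 2 main transcripts were lower alike, CDH11-201 with 1032, 239 and 150 counts and CDH11-212 with 665, 160 and 93.

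CDH2, the N-cadherin of neural and mesenchymal cells, went opposite ways in the 2 shKLF5 libraries. CDH2 (ENSG00000170558; chromosome 18, 27950966 to 28177446) went from 980 counts in scramble to 3331 in library 1 and 662 in library 2, or 36.9, 93.0 and 19.0 CPM. Library 1 was 2.52-fold above scramble (counting interval 2.35 to 2.71) and library 2 was 1.94-fold below it (1.75 to 2.14). Scramble thus lay between the shKLF5 libraries, and the log2 fold change of 0.60 (SE 0.78) was smaller than its error, with an adjusted p of 0.821 by edgeR's quasi-likelihood test. Both coding transcripts took part, the longer CDH2-201 with 715, 2671 and 421 counts and a shorter model with 265, 654 and 241.

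PCDH7, a protocadherin, was split between the libraries as well. PCDH7 (ENSG00000169851; chromosome 4, 30720415 to 31146805) showed 1982 counts in scramble, 2559 in library 1 but just 292 in library 2, or 74.6, 71.4 and 8.40 CPM. It was near scramble in library 1 (log2 difference -0.06) and 8.88-fold lower in library 2 (counting interval 7.85 to 10.1). In TPM, without TMM scaling, library 1 was above scramble, with 18.1 against 12.9. The log2 fold change over both was -0.90 (SE 0.92), with an adjusted p of 0.770 by edgeR's quasi-likelihood test. Without library 1 the value was -3.14, and without library 2 it was -0.06. PCDH7-205 had 880, 1197 and 99 counts and PCDH7-201 had 768, 876 and 127, so the split ran through the main transcripts.

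CDH2 and PCDH7 differed between libraries 1 and 2 by 2.28 and 3.08 on the log2 scale. A gap of at least 2, a limit chosen after the values were seen, was present in 2.63% of all genes tested and in 1.33% of those with a mean of at least 5 CPM. The gap was at most 0.97 for the other 8 members. Other genes of the superfamily with such a gap, likewise chosen afterwards, were PCDH18 with 824, 1141 and 192 counts and FAT4, a giant cadherin, with 385, 940 and 112. In each of the 4, library 1 lay above library 2.

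P-cadherin and T-cadherin were close to the limit of detection. CDH3 (ENSG00000062038; chromosome 16, 68636189 to 68722616), the P-cadherin of basal squamous cells, had 9, 22 and 18 counts, with 14608 bases between its end and the start of CDH1. This made 0.39, 0.95 and 0.72 TPM, where CDH1 had 79.2, 58.4 and 29.6 TPM. CDH13 (ENSG00000140945; chromosome 16, 82626803 to 83800640), a cadherin held by a lipid anchor, had 7, 12 and 7 counts. The counting intervals of their folds against scramble all included 1, from 0.80 to 4.47 for CDH3 in library 1 and from 0.65 to 3.86 in library 2. For CDH13 they were 0.46 to 3.81 and 0.23 to 2.55. No difference of either gene was detectable at this depth. CDH3 entered the fit through both shKLF5 libraries and CDH13 through library 1.

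The makeup of the classical cadherins, compared per length in TPM, followed from these values. CDH1 held 90.5% of the summed CDH1, CDH2 and CDH3 TPM in scramble, 66.8% in shKLF5 library 1 and 82.8% in library 2. CDH2 held 9.06%, 32.2% and 15.2%. The 3 genes together had 87.5, 87.4 and 35.7 TPM over all their transcripts. In these TPM the sum in library 1 was close to scramble with more of it from CDH2, while library 2 had less of both genes. A short retained-intron model, CDH1-208, with 33, 56 and 11 counts, made 8.41, 14.8 and 2.68 TPM of the sum. After TMM scaling the sum was lower in library 1 too, with 386, 243 and 122 CPM. Over protein-coding transcripts alone CDH1 had 68.4, 42.1 and 25.7 TPM, and its share was 89.6%, 59.3% and 81.2%. These shares rest on 1 scramble library and were not tested.

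**Figure D2:**
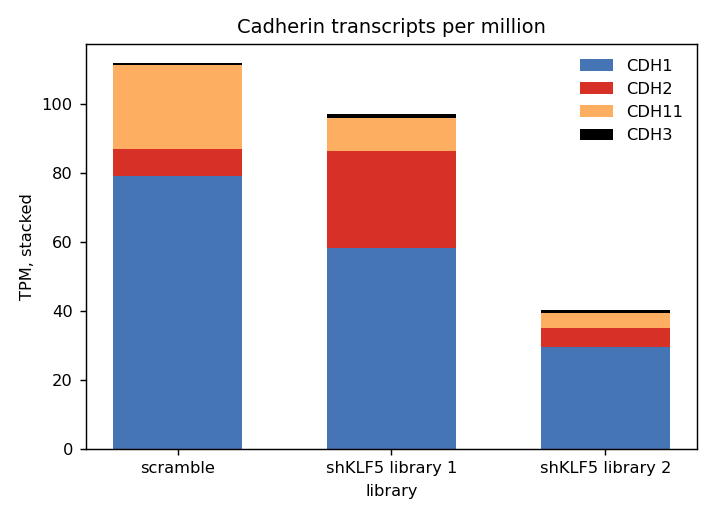
TPM of CDH1, CDH2, CDH11 and CDH3 stacked for each of the 3 libraries. CDH1 is the largest part in each (79.2, 58.4 and 29.6 TPM), the CDH2 part is widest in shKLF5 library 1 (28.1 TPM), and CDH11 is 24.4 TPM in scramble against 9.71 and 4.52.

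VIM was scarce in TE5 and higher by value in both shKLF5 libraries. VIM (ENSG00000026025; chromosome 10, 17228259 to 17237593), the intermediate filament of mesenchymal cells, was found at 39 counts in scramble against 141 (library 1) and 194 (library 2). This was 1.47 CPM against 4.76 ± 1.16 CPM (SD, n = 2), 2.68-fold higher in library 1 (counting interval 1.87 to 3.93) and 3.80-fold in library 2 (2.69 to 5.51). The log2 fold change was 1.69 (SE 0.59, 95% interval 0.32 to 3.07). The edgeR quasi-likelihood p was 0.0216 before adjustment, and the adjusted p was 0.476. Of genes with a mean under 5 CPM, 9.63% were higher and 1.69% lower at an unadjusted p under 0.05. The full-length VIM-201 had 18, 39 and 114 counts, and VIM-209 had 12, 57 and 7, so different transcripts were credited in the 2 libraries. VIM-AS1, which overlaps VIM on the other strand, had 11, 32 and 42 counts, and without a stated use of strand the reads of the 2 genes cannot be told apart in the overlap of 1727 bases.

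Markers of other cell types were low, and most of those tested were higher by value along with VIM. Of those tested, all but COL1A1, COL3A1 and VWF passed the filter on low counts through the shKLF5 libraries alone. They had little room to come out lower, and of all genes with a mean under 5 CPM 54.5% were higher in both libraries. Of 8 fibroblast markers 6 were tested, with 3 higher in both libraries, 1 lower in both and 2 opposite, and a median of 1.08 on the log2 scale. PDGFRB had 3, 39 and 35 counts in scramble and libraries 1 and 2, COL1A2 had 1, 18 and 15, and PDGFRA had 2, 14 and 9. The summed fibroblast level of 16.9, 26.6 and 15.9 TPM did not follow them, because COL1A1 made 13.0, 21.4 and 14.05 TPM of it, with COL3A1 at 484, 435 and 48 counts. DCN (4, 9 and 7 counts) and FAP (0, 0 and 3) were too low to be tested. The 6 leukocyte markers summed to 0.527, 2.36 and 3.12 TPM, and ITGAM with 8, 72 and 108 counts made 2.04 TPM of the last. PTPRC had 8, 24 and 11 counts, CD14 had 6, 7 and 17, and CD3E and LYZ were at 0 in scramble. The 4 endothelial markers summed to 0.347, 1.17 and 1.48 TPM, of which VWF made 0.324, 0.916 and 1.26. TEK had 2, 12 and 8 counts, and CDH5 and KDR were at 0 in scramble. The 5 glandular markers summed to 0.639, 4.10 and 5.53 TPM, of which KRT7 made 0.577, 3.92 and 5.38. KRT20 had 3, 4 and 3 counts, and CDX2, VIL1 and TFF1 were at 0 in scramble. In library 2 each of these 3 sums thus rested largely on a single gene. The part of these markers in the VIM value was not tested.

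Of the transcription factors that repress CDH1, the differences of SNAI2 and ZEB1 were within their error. SNAI2 (ENSG00000019549; chromosome 8, 48917604 to 48921740), which encodes SLUG, was by far the most abundant of the SNAI, ZEB and TWIST genes, with 32.4, 39.1 and 37.2 TPM. It had 1944, 2251 and 2236 counts, and its normalised level was 73.1 CPM in scramble and 63.6 ± 1.05 CPM (SD, n = 2) with shKLF5, whose libraries lay close together. The log2 fold change was -0.20 (SE 0.35, 95% interval -1.01 to 0.60), and its sign turned with the scaling, to 0.23 with library size alone and 0.23 on the log2(TPM + 1) scale with limma. ZEB1 (ENSG00000148516; chromosome 10, 31318495 to 31529814) had 173, 335 and 280 counts, which made 6.51 CPM in scramble and 8.70 ± 0.92 CPM (SD, n = 2) with shKLF5. Scramble lay below both shKLF5 libraries, while the log2 fold change of 0.42 (SE 0.47) was within its error. Adjusted p-values were 0.871 for SNAI2 and 0.792 for ZEB1 in the edgeR fit. ZEB1-201 had 132, 205 and 126 counts and ZEB1-208 had 13, 64 and 77. ZEB1-AS1, which overlaps the start of ZEB1 by 1953 bases on the other strand, had 304, 413 and 680 counts, more than ZEB1 itself in each library, and strand was not stated for these reads either.

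**Figure D3:**
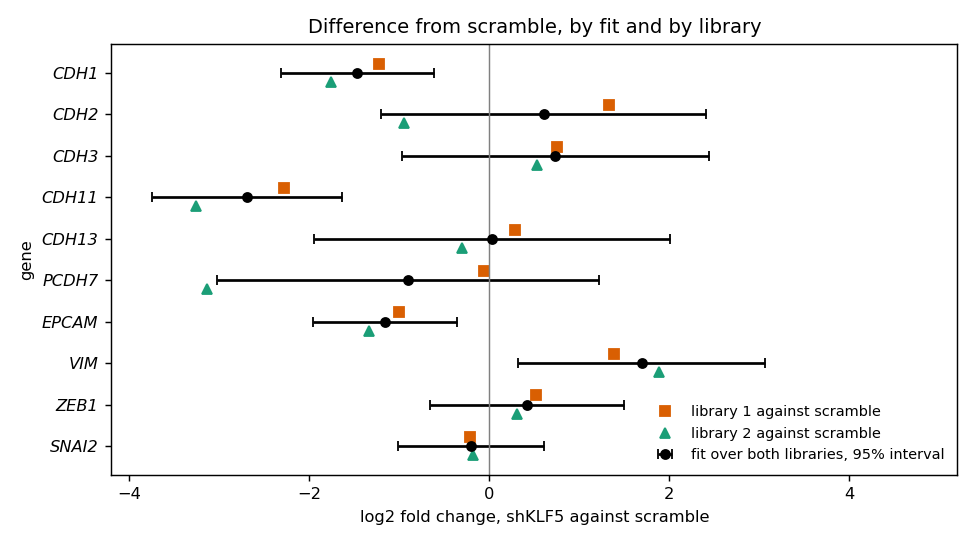
Log2 fold change of each gene against scramble: black points with bars are the fit over both libraries and its 95% interval, squares are library 1 and triangles library 2. The intervals of CDH1, CDH11, EPCAM and VIM lie to one side of 0, and the symbols of CDH2 fall on opposite sides (1.33 and -0.95).

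Counted together, all 10 members passed the filter on low counts, CDH3 and CDH13 by way of shKLF5 libraries alone. By value 5 were lower in both shKLF5 libraries (CDH1, CDH11, PCDH7, EPCAM, SNAI2), 3 higher in both (CDH3, VIM, ZEB1) and 2 went opposite ways (CDH2, CDH13). Over all 20629 genes tested 36.5% were lower in both, 37.9% higher in both and 25.5% opposite, so the members' directions were near those of genes at large. With library size alone, without TMM, the members split into 5 higher in both, 3 lower in both and 2 opposite. At an unadjusted p under 0.05 there were 3 lower members (CDH1, CDH11, EPCAM), where 3.5% of genes were lower at that level, and 1 higher (VIM), where 5.68% were. Of the 7 members with a mean of at least 5 CPM, 5 were lower in both, 1 higher in both and 1 opposite, beside 50.8%, 23.5% and 25.8% of the genes at that level. Of these 7, 3 were lower at an unadjusted p under 0.05 and 0 higher, beside 5.08% and 2.22%. The median log2 fold change of all 10 was -0.09, beside 0.04 for all genes tested. The quasi-likelihood test of edgeR passed 0% of genes at an adjusted p under 0.05. At an unadjusted p under 0.05 it had 1893. DESeq2 called 118 genes, 0.32% lower and 0.367% higher, and edgeR's legacy fit 21 (0.102%), and among the members only CDH11, by DESeq2, was called.

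The catenins, which tie cadherins to actin, went both ways together with other junction proteins, with JUP lowest. Of 16 catenins and junction partners 14 were tested, and 6 lay below -0.5 and 2 above 0.5 on the log2 scale. By value 7 were lower in both libraries, 3 higher in both and 4 opposite, beside 36.5%, 37.9% and 25.5% of all genes tested. Of the 3, CTNNA2 (4, 11 and 12 counts, named with its values in view) passed the filter on low counts through the shKLF5 libraries alone. Of the 12 with a mean of at least 5 CPM, 7 were lower in both, beside 50.8% of genes at that level. The median of the 14 was -0.09 on the log2 scale, a sign that turned with library size alone (0.34). JUP, which encodes plakoglobin of both adherens junctions and desmosomes, stood at -1.34 on the log2 scale (SE 0.35), with 7873, 4736 and 3541 counts. CTNNA1, alpha-catenin, had 8786, 7585 and 7385 counts (-0.64, SE 0.34), and CTNNB1, beta-catenin, had 8610, 9132 and 6700 (-0.53, SE 0.36). AJUBA, a LIM protein of junctions, stood at -1.23 (SE 0.35) and NECTIN4, an immunoglobulin-like adhesion protein, at 1.65 (SE 0.67) with 87, 207 and 514 counts. At an unadjusted p under 0.05 there were 2 lower and 1 higher of the 14, beside 3.5% and 5.68% of all genes, and none passed the adjustment by edgeR's quasi-likelihood test.

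Among 46 other cadherin superfamily genes 33 were tested. By value 16 were higher in both libraries, 8 lower in both and 9 opposite, and their median was 0.49 on the log2 scale, beside 36.5% of all genes tested lower in both and 37.9% higher. Of the 33, 21 had a mean under 5 CPM, and 13 of these were higher in both, where 54.5% of all genes at that level were. In a fit restricted to genes with a mean of at least 5 CPM, the median of those left was -0.093. The most abundant were FAT1, a giant cadherin, with 171, 217 and 99.1 TPM, and CLSTN1, calsyntenin, with 106, 120 and 64.9 TPM. CDH1 ranked 3 of 52 in scramble, and 16 of the 52 reached 1 TPM there, against 22 and 20 in the shKLF5 libraries. CELSR3, a cadherin of planar polarity, had 299, 966 and 1091 counts (1.37, SE 0.42), CDHR3 had 4, 38 and 27, and CDH5, the endothelial cadherin, had 0, 14 and 10. Set against a floor of 3 counts in scramble, CDH5 was 3.46-fold higher in library 1 and 2.55-fold in library 2. These folds leave out the counting error of the shKLF5 counts, so they are not lower limits. At an unadjusted p under 0.05 there were 5 higher and 0 lower, beside 5.68% and 3.5% of all genes tested. Of the 5, CDH5, CDHR3 and CDH9 (0, 6 and 13 counts, named with its values in view) passed the filter on low counts through the shKLF5 libraries alone, so they could not have come out lower. None of the 33 passed the adjustment by edgeR's quasi-likelihood test.

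Other factors of the transition were mostly scarce. Of 12 listed 8 were tested, 5 higher by value in both libraries and 3 lower in both, and their median of 0.32 on the log2 scale turned to -0.18 after a correction for abundance. HMGA2, a chromatin protein tied to the transition, had 1071, 2531 and 3165 counts (0.81 and 1.17 in the 2 libraries on the log2 scale). SNAI1, the SNAIL gene, had 25, 129 and 76 counts (1.62, SE 0.66). TCF4, a basic helix-loop-helix factor, had 1327, 1083 and 682 counts (-0.72 and -1.34) and its relative TCF3 had 4375, 4611 and 2393 (-0.74, SE 0.43). TWIST1 had 6, 10 and 8 counts and ZEB2 had 0, 7 and 2, named here as other members of the families although outside the rule for named genes. None of the 8 passed the adjustment by edgeR's quasi-likelihood test, and 2 were higher and 1 lower at an unadjusted p under 0.05 (5.68% and 3.5% of all genes).

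Other epithelial genes differed widely in level, from MIR205HG down to RAB25 with 1, 2 and 6 counts. Of 20 other epithelial genes 18 were matched and 16 tested, 6 lower by value in both libraries, 7 higher in both and 3 opposite, with a median of 0.20. MIR205HG, the host of miR-205, was the most abundant in scramble at 140 TPM, and had 3993, 3162 and 1839 counts (-1.09, SE 0.40). MIR200CHG, the host of miR-200c and miR-141 chosen to be named with its values in view, had 29, 13 and 18 counts. The mature microRNAs were not measured. FXYD3, an ion pump regulator, had 1018, 542 and 397 counts (-1.53, SE 0.39), and SPINT1, a protease inhibitor of epithelia, had 1240, 2260 and 1876 (0.33, SE 0.37). ESRP1, the epithelial splicing regulator, had 18 counts in scramble against 44 and 292, and its log2 fold change of 2.82 (SE 1.16) rested on library 2 (3.52, against 0.80 in library 1). RAB25 and SPINT2, likewise chosen with their values in view, had at most 24 counts in any library. Of the 16, 2 were lower and 1 higher at an unadjusted p under 0.05 (3.5% and 5.68% of all genes), and none passed the adjustment by edgeR's quasi-likelihood test.

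Other mesenchymal genes had no common direction. Of 22 listed 19 were tested, with 9 lower by value in both libraries, 6 higher in both, 4 opposite and a median of -0.39, which turned to 0.04 with library size alone. Over all genes tested 36.5%, 37.9% and 25.5% went these ways. Of the 6, SPARC, ACTA2 and TPM2, named with their values in view, passed the filter on low counts through the shKLF5 libraries alone. Of the 8 with a mean of at least 5 CPM, 5 were lower and 2 higher in both, beside 50.8% and 23.5% of genes at that level. TNC, the matrix protein tenascin C, had 174, 1030 and 596 counts (1.81, SE 0.51). L1CAM and NCAM1, adhesion proteins of neurons, were lower by value, L1CAM with 2414, 1227 and 982 counts (-1.54, SE 0.35) and NCAM1 with 417, 198 and 151 (-1.67, SE 0.44). CD44, the hyaluronan receptor, was the most abundant at 589, 587 and 138 TPM, lower in library 2 than in the others, and CALD1, caldesmon, had 33.5, 40.7 and 22.4 TPM. At an unadjusted p under 0.05 there were 2 higher and 2 lower of the 19 (5.68% and 3.5% of all genes), and none passed the adjustment by edgeR's quasi-likelihood test.

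**Figure D4:**
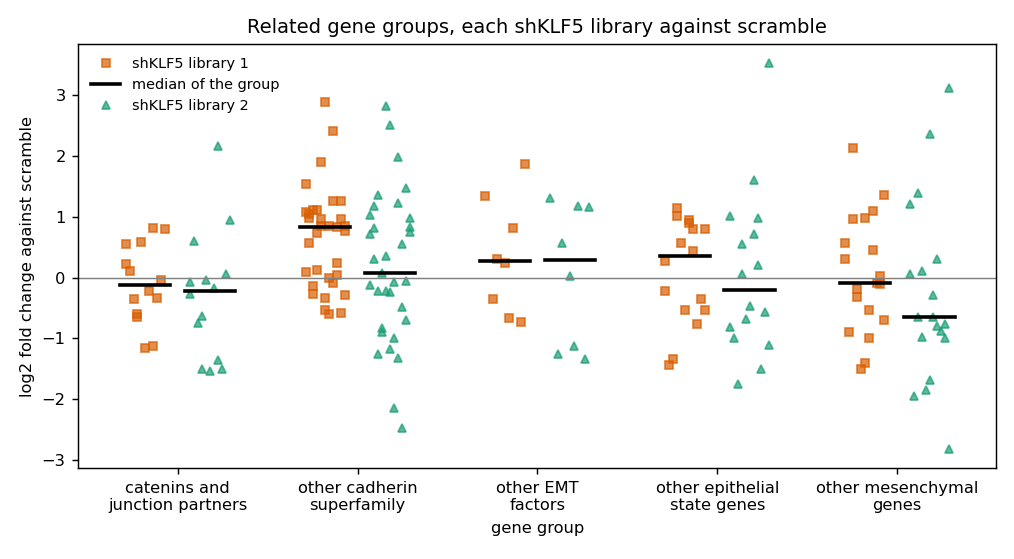
Log2 fold change against scramble of each tested gene in the 5 related groups, squares for shKLF5 library 1 and triangles for library 2, with bars at the median of each group in each library. The bar of the other cadherin superfamily is at 0.84 in library 1 and 0.07 in library 2, and that of the other mesenchymal genes at -0.09 and -0.64.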

How the data were processed

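RNA from 1 scramble and 2 shKLF5 libraries of TE5 cells was sequenced from TruSeq libraries on a HiSeq instrument, per the labels' protocols. The deposited tables hold estimated counts per transcript, not normalised, per the file headers. They also hold deposited TPM, a length-corrected abundance scaled to 1 fixed sum in every library, per the file headers. Length and effective length in bases are the other deposited columns. The submitters' processing notes list kallisto, DESeq2 and hg19 with no version. Which transcript index was used, and whether strand was, is not given in the sources used here. Because kallisto splits shared reads, values of single transcripts and paralogs are estimates.

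Of 196354 transcripts 92.6% were matched by identifier to GENCODE 29, whose GRCh38 coordinates are printed. The unmatched held 3.05% to 3.42% of counts and were left out. Estimated counts were summed per gene and rounded. edgeR 4.0.16 in R 4.3.3 (filterByExpr, TMM, quasi-likelihood F test, legacy = FALSE) compared 2 libraries with 1 over 20629 genes, with Benjamini-Hochberg adjustment and a threshold of 0.05. There was 1 residual degree of freedom, with 6.86 prior, and the biological coefficient of variation was 32.9%. TMM factors were 0.82, 1.11 and 1.10. SE is the absolute log2 fold change over the square root of F. The log2 differences of single libraries, with a prior count of 2, were not tested. Counting intervals are exact (Clopper-Pearson) at 95% and, like the floor of 3 counts, cover counting error only, since reads had no molecular identifiers. Tried in their place were library size alone, median-ratio size factors, no filter, a mean CPM of at least 5, the legacy fit, DESeq2 1.42.0, limma 3.58.1 on log2(TPM + 1), length-scaled TPM and each shKLF5 library left out. A loess correction for abundance and the split at 5 CPM were chosen after seeing the data. The members and lists were chosen with earlier results of these data known. Named genes were the members, KLF5, and from each list the 3 with the smallest p and the 2 with the highest TPM. Beyond that rule, markers of other cell types at or near 0 and the genes said to be so were named with their values in view. Of the marker and gene lists, PECAM1, MUC5AC, CD24 and EPPK1 were not matched.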

Additional observations from a re-analysis of the deposited data

How the results depend on the processing

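The directions of CDH1, CDH11, EPCAM, PCDH7, VIM, ZEB1 and CDH3 held under each alternative that tested them, and CDH3, CDH13 and VIM were not tested at a mean CPM of at least 5. No paired analysis was possible because the scramble library carries no replicate number. DESeq2 called 118 genes and the legacy fit 21, against 0, and 1893 genes had an unadjusted p under 0.05. Under DESeq2 CDH11 passed at -2.73, CDH13 was at -0.0079, and the medians of the catenin list and of the other transition factors were 0.0106 and 0.70. With library size alone, where the median of all genes was 0.47 against 0.04, SNAI2 stood at 0.23, 5 members were higher in both and 3 were lower, and the members' median was 0.34. There the medians were 0.34 for catenins, 0.75 for transition factors, 0.63 for epithelial and 0.039 for mesenchymal genes. With limma on log2(TPM + 1) SNAI2 stood at 0.23, 3 members were lower in both, and the medians were 0.14 for members, 0.14 for catenins, 0.10 for transition factors and 0.19 for mesenchymal genes. With length-scaled TPM CDH13 stood at -0.16 and the epithelial median at -0.043. With no filter CDH13 stood at -0.010, and the medians of catenins and transition factors were 0.0060 and 0.70. With a mean CPM of at least 5, which tests fewer genes, 1 member was higher in both and 3 were lower, and the medians were -0.74 for members, -0.19 for catenins, -0.093 for other cadherins, -0.56 for transition factors and -0.47 for epithelial genes. After the loess correction CDH13 stood at -0.77, and the medians were -0.0051 for catenins, -0.18 for transition factors and -0.037 for epithelial genes. The cause of these shifts was not tested.

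With a single shKLF5 library left, a value without a test, CDH1 ranged from -1.76 to -1.22, CDH2 from -0.95 to 1.33, CDH3 from 0.53 to 0.76, CDH11 from -3.25 to -2.28, CDH13 from -0.31 to 0.29, PCDH7 from -3.14 to -0.062, EPCAM from -1.34 to -1.01, VIM from 1.39 to 1.88, ZEB1 from 0.30 to 0.52 and SNAI2 from -0.22 to -0.19. From 5 to 7 members were then lower and 3 to 5 higher. The medians ranged from -0.63 to 0.11 for members, -0.22 to -0.13 for catenins, 0.07 to 0.84 for other cadherins, 0.27 to 0.29 for transition factors, -0.20 to 0.35 for epithelial and -0.64 to -0.09 for mesenchymal genes. With 1 control library depth limits CDH3 and CDH13, with at most 22 counts in a library.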
